A study of Mus musculus with 7 samples.

Results

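The retinoblastoma family and the E2F transcription factors were examined as 10 genes: the pocket proteins Rb1, Rbl1 and Rbl2, the activator E2Fs E2f1, E2f2 and E2f3, the pocket-bound repressors E2f4 and E2f5, and the atypical repressors E2f7 and E2f8. They are 10 of 21829 protein-coding genes. E2f6, a further E2F gene, is not among them and is given with the other pathway genes. They were chosen by gene name, and the peaks described are those that overlap a gene's body extended by 20 kb on both sides, its window. Open DNA was mapped by ATAC-seq, a method that tags accessible chromatin with a transposase, in retinal endothelial cells of mice aged 6 days (P6). All mice carried a FUCCI reporter, a set of fluorescent proteins that are made and destroyed with the cell cycle. Neither strain nor sex is given in the sources used here. Both groups were living, CD31-positive and CD45-negative cells: 3 libraries of cells without fluorescence, labelled early G1, and 4 libraries of red cells, labelled late G1. The libraries of a group were merged before peaks were called, so there is 1 list per group. No value below therefore has a replicate error, and no test between the groups was possible. In such pools, a region open in fewer cells and a region less open in each cell cannot be told apart.

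Retinoblastoma protein and its relatives p107 (Rbl1) and p130 (Rbl2) hold E2F factors in an inactive or repressing state at the promoters of genes needed for DNA replication. Cyclin D with CDK4 or CDK6, and later cyclin E with CDK2, phosphorylate the pocket proteins during G1, which frees the activator E2Fs. In cells at rest p130 and p107 bind E2f4 or E2f5 and the MuvB proteins. E2f7 and E2f8 bind DNA without a DP partner and repress E2F target genes later in the cycle. Several E2F genes are themselves E2F targets.

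The start regions of the genes are shown first, because peaks at start sites are described apart from the others. A late start-site peak was called at 5 of the 10 genes, against 67.4% of all protein-coding genes. The sequences run from 250 bases before to 50 bases after a RefSeq start and are given on the gene's strand. They are credited to RefSeq (build GRCm38.p6, the same sequence as mm10), with 1 exception. RefSeq places the start of E2f1 downstream of the GENCODE start, so for E2f1 the stretch around the GENCODE start was read from the same assembly. The first 3 sequences lie at genes with a start-site peak in both lists, and the last 3 at genes with one in the early list only. Capitals mark an E2F word, which is TTT, then 2 bases that are each C or G, then CGC, on either strand. E2f8 also had a start-site peak in the early list only, but its promoter, which held no E2F word, is not printed.
E2f1, minus strand: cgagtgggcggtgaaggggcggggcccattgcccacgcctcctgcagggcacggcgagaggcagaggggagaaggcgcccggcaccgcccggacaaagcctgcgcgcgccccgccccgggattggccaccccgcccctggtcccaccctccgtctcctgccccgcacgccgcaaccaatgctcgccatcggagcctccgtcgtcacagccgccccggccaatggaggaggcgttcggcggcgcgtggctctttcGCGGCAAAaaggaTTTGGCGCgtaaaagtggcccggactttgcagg
E2f3, minus strand: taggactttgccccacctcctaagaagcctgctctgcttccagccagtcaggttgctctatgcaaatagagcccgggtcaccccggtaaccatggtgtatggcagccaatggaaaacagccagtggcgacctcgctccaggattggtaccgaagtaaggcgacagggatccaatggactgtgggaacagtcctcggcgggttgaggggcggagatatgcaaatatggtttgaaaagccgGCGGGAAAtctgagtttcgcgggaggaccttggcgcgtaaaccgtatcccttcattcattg
E2f7, plus strand: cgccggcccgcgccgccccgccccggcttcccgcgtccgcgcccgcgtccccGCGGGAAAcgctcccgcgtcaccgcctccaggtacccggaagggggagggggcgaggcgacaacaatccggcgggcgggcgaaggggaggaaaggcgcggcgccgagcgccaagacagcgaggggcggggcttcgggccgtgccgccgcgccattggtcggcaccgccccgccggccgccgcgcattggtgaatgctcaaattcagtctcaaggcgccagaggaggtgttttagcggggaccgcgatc
Rbl1, minus strand: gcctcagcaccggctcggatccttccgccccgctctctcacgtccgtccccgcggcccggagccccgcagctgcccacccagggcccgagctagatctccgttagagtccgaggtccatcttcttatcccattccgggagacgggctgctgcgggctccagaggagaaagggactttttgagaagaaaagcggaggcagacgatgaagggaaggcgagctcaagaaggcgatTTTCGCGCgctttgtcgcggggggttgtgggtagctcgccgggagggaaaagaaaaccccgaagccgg
Rbl2, plus strand: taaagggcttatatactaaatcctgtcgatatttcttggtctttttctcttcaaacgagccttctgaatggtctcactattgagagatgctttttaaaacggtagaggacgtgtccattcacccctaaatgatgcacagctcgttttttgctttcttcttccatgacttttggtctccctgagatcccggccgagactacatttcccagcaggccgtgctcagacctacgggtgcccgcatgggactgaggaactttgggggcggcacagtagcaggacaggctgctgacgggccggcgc
E2f2, plus strand: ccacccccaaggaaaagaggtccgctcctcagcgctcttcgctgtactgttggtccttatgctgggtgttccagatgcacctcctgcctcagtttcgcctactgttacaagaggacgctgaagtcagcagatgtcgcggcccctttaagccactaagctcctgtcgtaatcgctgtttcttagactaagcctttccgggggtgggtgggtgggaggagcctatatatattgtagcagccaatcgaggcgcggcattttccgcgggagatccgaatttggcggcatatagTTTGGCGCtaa
The stretches are chr2:154569843-154570142, chr13:29986014-29986313, chr10:110745189-110745488, chr2:157204485-157204784, chr8:91069807-91070106 and chr4:136172024-136172323, in the order printed.

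Of the 10 genes 7 were matched in the RefSeq promoter table, and Rb1, E2f4 and E2f5 were not analysed here for words. These 7 have 9 promoters in the table, of which 4 held an E2F word, those of Rbl1, E2f7, and 1 each of E2f2 and E2f3. The word was present in 2.26% of all 32851 reference promoters. The family's promoters were richer in CpG: the median ratio of observed to expected CpG was 0.804 over 9 entries, against 0.384 over all promoters. Among promoters with a ratio of at least 0.7 the word was present in 5.43%, and in 4 of the family's 8. The stretch around the GENCODE start of E2f1 held 2 E2F words just downstream of the start, and no E2F word overlapped a match of another word searched. The other words were TTTGAA and TTCGAA (the cell cycle homology region), CCAAT, and the GC box GGGCGG, on both strands. They were present in 4, 5 and 8 of the 9 promoters, against 19.2%, 37.4% and 35.7% of all promoters. At a CpG ratio of at least 0.7 they were present in 3, 4 and 7 of 8, against 11.3%, 34.8% and 75.0%. These matches are a description of letters, not of bound sites. Of the 4 promoters with the word, late peaks covered 270 of the 300 bases at E2f3, 182 at E2f7, 0 at Rbl1 and 0 at E2f2. Early peaks covered all 300 at E2f3, E2f7 and Rbl1 and 0 at E2f2. The table has a further promoter inside E2f2, at chr4:136180532-136180831, without an E2F word, and a late peak covered all of it.

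The 2 lists differ as wholes, which bears on each comparison. The early list held 606661 peaks with a median length of 1334 bp from 137191808 fragments, and the late list 383721 peaks with a median length of 681 bp from 124693948 fragments. Pileup is the authors' mean number of fragments over a peak. It is not scaled between the lists, so it is read here only within a list, as a value and as a percentile of that list's peaks. The labelled cell type was checked by its markers, and endothelial start sites had peaks no more often than those of other retinal cells. Of 10 endothelial markers 8 had an early and 6 a late peak within 1 kb of a start site, Tek (an endothelial angiopoietin receptor) had neither, and Tie1 had only a late one. Of 20 markers of leukocytes, photoreceptors, retinal neurons, Müller glia and progenitors, and pericytes, the early list had such a peak at all and the late list at 12. The part of other cells in the results below was not tested.

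All 10 genes had an early peak within 1 kb of an annotated start site, and 5 of them also had a late one. The 5 with both were Rb1, E2f1, E2f3, E2f5 and E2f7. The 5 with an early peak only were Rbl1, Rbl2, E2f2, E2f4 and E2f8, and none had a late peak only. Over all protein-coding genes the share with an early start-site peak was 92.6% and the share with a late one 67.4%. Peaks in both lists were present at 64.3% of genes, an early peak alone at 28.3% and a late peak alone at 3.07%. The early-only group cut across the roles: it held 2 of 3 pocket proteins, 1 of 3 activators, 1 of 2 pocket-bound repressors and 1 of 2 atypical repressors.

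A narrower question is whether a peak lay over the start position itself. In the early list this was so for 6 genes and in the late list for 5. Over all genes the shares were 71.6% and 41.1%. Rb1, E2f3, E2f5 and E2f7 had a start position covered in both lists (34.2% of all genes), and Rbl1 and E2f8 in the early list only (37.4%). E2f1 was covered in the late list only (6.94% of all genes). The start positions of Rbl2, E2f2 and E2f4 were covered in neither (21.5%). The 3 genes with uncovered starts had their nearest early peaks at 796 bp upstream, 288 bp downstream and 33 bp upstream, in that order. Their nearest late peaks were 1880 bp upstream, 2456 bp downstream and 3174 bp downstream.

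**Figure D1:**
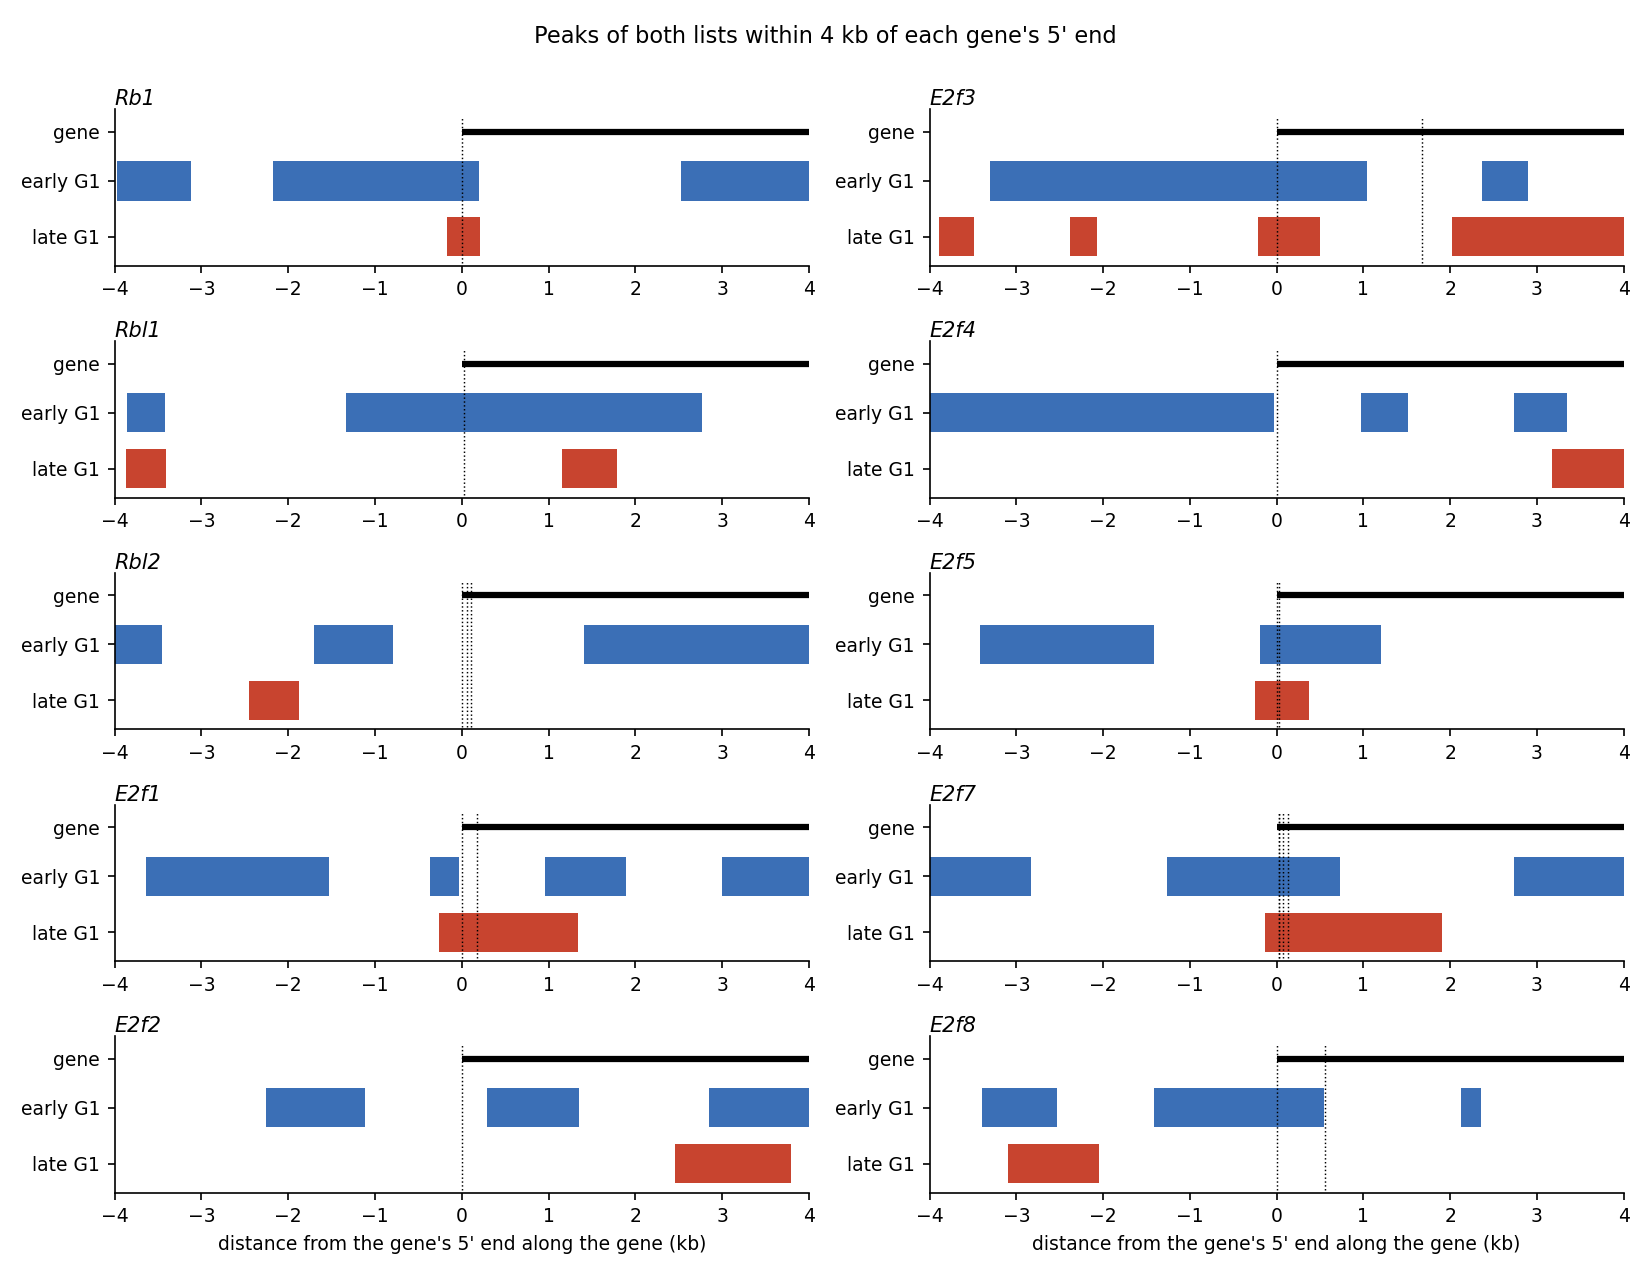
Peaks of the early (blue) and late (red) G1 lists within 4 kb of the 5′ end of each gene; the x axis is the distance along the gene in kb, dotted lines are annotated start sites and the black bar is the gene. Late peaks lie over a start site in Rb1, E2f1, E2f3, E2f5 and E2f7, and late peaks are absent within 1 kb in Rbl1, Rbl2, E2f2, E2f4 and E2f8.

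Among the pocket proteins, Rb1 had the only late start-site peak. Rb1 encodes the retinoblastoma protein itself and lies on the minus strand at chr14:73183673-73325822. Its start was covered by an early peak of 2367 bp with a pileup of 31.51. A late peak of 380 bp also covered it, with a pileup of 66.41 and 5.97-fold enrichment over the background. The early peak ran from chr14:73325628 to 73327994, mostly upstream of the gene, and the late peak from chr14:73325616 to 73325995, centred almost on the start. On the gene side both peaks ended inside exon 1, at nearly the same base. The window of Rb1 was the longest of the family, at 182.15 kb, and held 47 early and 23 late peaks. Of these, 36 and 17 lay in introns. Neither list had a peak within 1 kb of a start site of Lpar6, a lysophosphatidic acid receptor gene nested inside Rb1.

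Rbl1 and Rbl2 had early start-site peaks only, and these were of different kinds. At Rbl1 (p107, minus strand, chr2:157145893-157204534) an early peak of 4107 bp covered the whole 1 kb on both sides of the start, with a pileup of 34.58, at percentile 90.43 of the early list. The nearest late peak began 1135 bp into the gene, in intron 1, and lay inside the span of that early peak. Rbl2 (p130, plus strand, chr8:91070057-91123844) had the weakest start-site peak of the family, with a pileup of 22.8, at percentile 16.31 of the early list. It covered 9.75% of the start-site windows of Rbl2 and did not reach the promoter stretch printed above. The strongest early peak in the window of Rbl2, with a pileup of 55.0, lay within 1 kb of a start site of the neighbouring gene Aktip. It was also the highest early pileup in any of the 10 windows.

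The activator E2Fs are described in turn. At E2f1 (minus strand, chr2:154559407-154569892) a late peak of 1610 bp with a pileup of 57.53 lay over both annotated starts. Early peaks flanked them: 1 of 346 bp ended 27 bp upstream, and 1 of 928 bp lay inside the gene. The late peak covered all 300 bases of the E2f1 stretch printed above, with its 2 E2F words, and the early peak covered 224 of them. Late peaks covered 66.3% of the start-site windows of E2f1 and early peaks 25.7%. E2f1 was the only one of the 10 genes with a larger late than early share there, and the number of such genes over all genes was not computed. Among the other pathway genes, Cdc6 (71.0% late, 0.0% early) and Tfdp1 (60.2% and 20.6%) also had a larger late share. In the stricter sets of peaks described below, E2f1 had an early start-site peak only.

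E2f3 (minus strand, chr13:29906575-29986063) has a second annotated start 1672 bp inside the gene, from which a shorter form of the protein is known to be made. Over the first start both lists had a peak, 4341 bp long with a pileup of 44.97 in the early list and 717 bp long with a pileup of 41.21 in the late list. The early peak was at percentile 99.11 of its list and the late peak at percentile 43.04. The second start was covered in neither list. A late peak of 2118 bp began 348 bp downstream of the second start, with a pileup of 84.51, the highest of the late start-site peaks in the family.

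E2f2 (plus strand, chr4:136172394-136196057) had an early peak of 1062 bp that began 288 bp downstream of its start, and a late peak of 1335 bp with a pileup of 121.77 that began 2456 bp downstream. The E2F word of E2f2 lies upstream of the GENCODE start, in the 300 bases printed, of which neither list covered any.

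Of the pocket-bound repressors, E2f5 had peaks over its start in both lists and E2f4 in neither. At E2f5 (plus strand, chr3:14578641-14606309) the early peak was 1397 bp long with a pileup of 38.32, at percentile 96.15, the highest in that window. The late peak was 621 bp long with a pileup of 25.28, at percentile 18.5, the weakest late start-site peak of the family. At E2f4 (plus strand, chr8:105297663-105305370) an early peak of 5812 bp ended 33 bp before the start, and a second of 547 bp began 969 bp after it. The long early peak also lay within 1 kb of a start of the neighbouring gene Exoc3l, so it cannot be assigned to 1 of the 2 genes. No late peak lay closer to the start of E2f4 than 3174 bp. That late peak, of 2089 bp, lay in the body of the gene with a pileup of 72.16.

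Among the atypical repressors, E2f7 had a start-site peak in both lists and E2f8 in the early list only. E2f7 (plus strand, chr10:110745439-110787384) had peaks of similar length over its starts, 2001 bp in the early list with a pileup of 38.17 and 2042 bp in the late list with a pileup of 54.95. The early peak reached further upstream and the late peak further into the gene. E2f8 (minus strand, chr7:48866429-48881596) had an early peak of 1959 bp with a pileup of 34.92 over its outer start. Its nearest late peak, of 1048 bp with a pileup of 29.49, lay 2046 bp upstream.

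Start-site peaks of the family stood high within the early list and in the middle of the late list. The 13 early start-site peaks had a median pileup of 34.58 and a median percentile of 90.4. The 28182 early start-site peaks of all protein-coding genes had a median percentile of 67.2. The 6 late start-site peaks had a median pileup of 56.24 and a median percentile of 54.1, against 44.2 for the 17342 late start-site peaks of all genes. Of the early ones 11 of 13 were above the upper quartile of pileup in their list, 30.36, as were 40.9% of those of all genes. Of the late ones 0 of 6 were above the upper quartile, 100.5, as were 19.2% of those of all genes. In the same windows, the 13 early peaks at start sites of other genes had a median percentile of 84.5, and the 11 late ones 38.0. The family's early start-site peaks were also richer in G and C bases than those of all genes (median 53.6%, against 48.6%). Strength at equal base content was not compared. Percentiles of lists of different length show no change between groups.

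**Figure D2:**
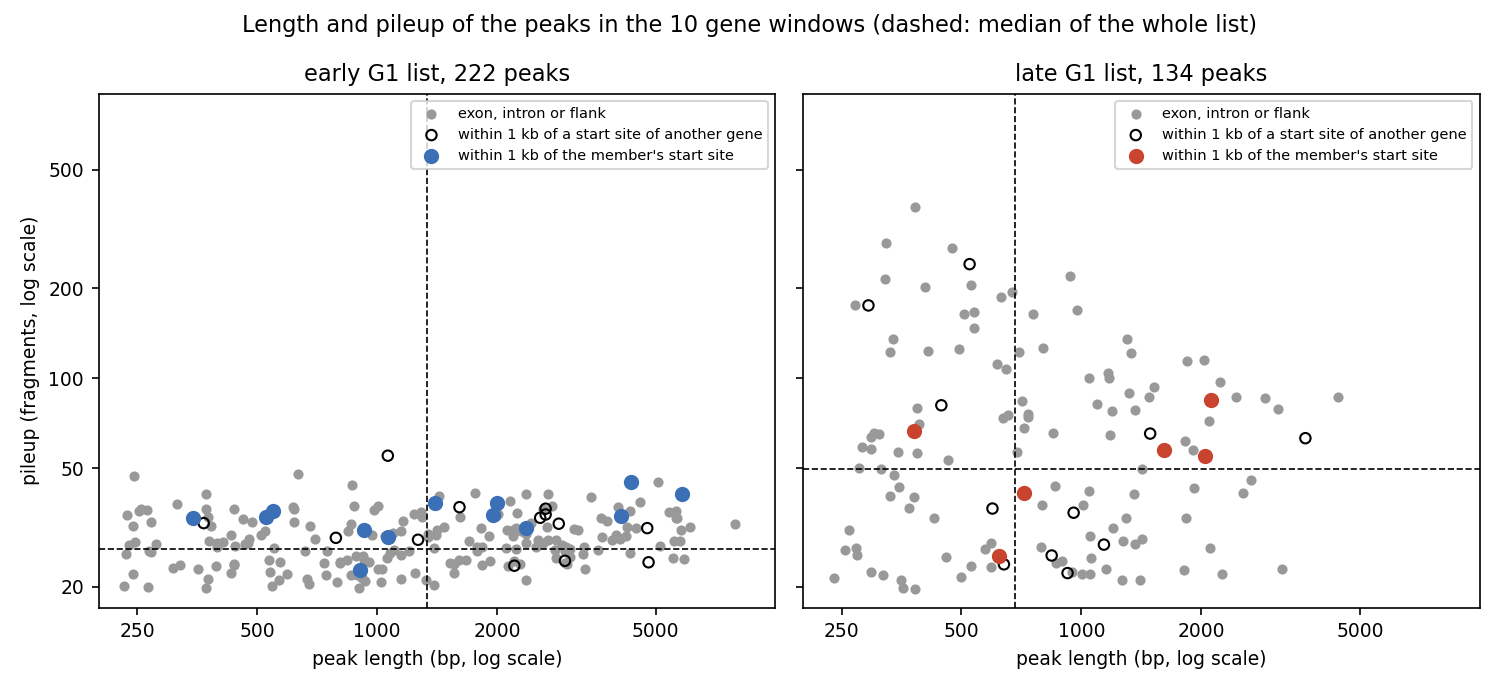
Length (x axis, bp) and pileup (y axis, fragments) of every peak in the 10 windows, both on log scales, with the early list at left and the late list at right; dashed lines are the medians of each whole list. Early start-site peaks (filled blue) lie mostly above the median pileup of 26.72, while the late start-site peaks (filled red) lie between 25.28 and 84.51, below the short late peaks that reach 375.07.

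No late peak above the upper quartile of its list lay at the family's own start sites, where only 6 of the 134 late peaks lay. The others lay in introns (56), in exons (8), in the upstream (23) and downstream (30) flanks, or at a start site of another gene (11). This split was not computed over all genes. Of 134 late peaks, 30 exceeded the upper quartile of the late list (22.4%). Of these 13 lay in introns, 4 had their centre in an exon, 3 and 8 lay in the upstream and downstream flanks, and 2 lay within 1 kb of a start site of another gene. Their median length was 536 bp. It was also 536 bp for the 67850 late peaks of the whole list with a pileup of at least 123.07, a higher limit than the upper quartile of 100.5. An early peak overlapped 20 of the 30, against 68.5% of late peaks of any strength in the windows of all protein-coding genes. The share among equally strong late peaks was not computed. The peak with the highest pileup of all lay in intron 11 of Rbl1, at chr2:157181488-157181869. It was 382 bp long, with a pileup of 375.07, 19.2-fold enrichment and percentile 99.73 of the late list, and no early peak overlapped it. Its central 200 bases are printed because it has the highest late pileup of the family, on the plus strand of chr2:157181579-157181778, with no part capitalised.
Rbl1 intron 11, late peak: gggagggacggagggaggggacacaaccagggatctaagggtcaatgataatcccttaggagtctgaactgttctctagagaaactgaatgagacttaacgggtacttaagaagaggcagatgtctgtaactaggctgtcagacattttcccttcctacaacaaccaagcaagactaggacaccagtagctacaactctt
A second late peak in Rbl1, of 324 bp in intron 15, had a pileup of 283.07, the next highest in the family.

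The leading late peak of each gene was between 270 and 937 bp long. In E2f8 it lay in intron 6 (472 bp, pileup 274.09), in E2f7 in intron 9 (937 bp, 219.97), in E2f2 in intron 6 (322 bp, 215.57) and in Rb1 in intron 4 (528 bp, 204.91). In E2f3 and E2f4 it lay in the upstream flank, 3.69 and 12.9 kb before the 5′ end, with pileups of 201.44 and 175.36. In Rbl2 and E2f5 it lay in the downstream flank, with pileups of 163.94 and 123.07. In the window of E2f1 it lay within 1 kb of a start site of Actl10, with a pileup of 241.19. The leading late peak overlapped an early peak for 7 of the 10 genes, and for Rb1, Rbl1 and E2f3 it did not. Of late peaks of any strength in all gene windows 68.5% overlapped one. A median of 13.6% of the bases of these 10 peaks is repeat-masked in the reference, against 16.0% for all late peaks in the windows, and 22.3% for late peaks of the whole list at least as strong. The 10 leading late peaks had folds over background of 8.86 (E2f1) to 19.2 (Rbl1 and E2f2), where the median was 3.95 over all 134 late peaks in the windows and 3.85 over the late list. The leading early peaks had folds of 1.98 (Rb1) to 3.21 (Rbl2), with medians of 2.05 in the windows and 2.09 over the early list. Leading peaks were picked by pileup, which enters the fold, so high folds among them follow in part from the choice. Folds are not compared between the lists.

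**Figure D3:**
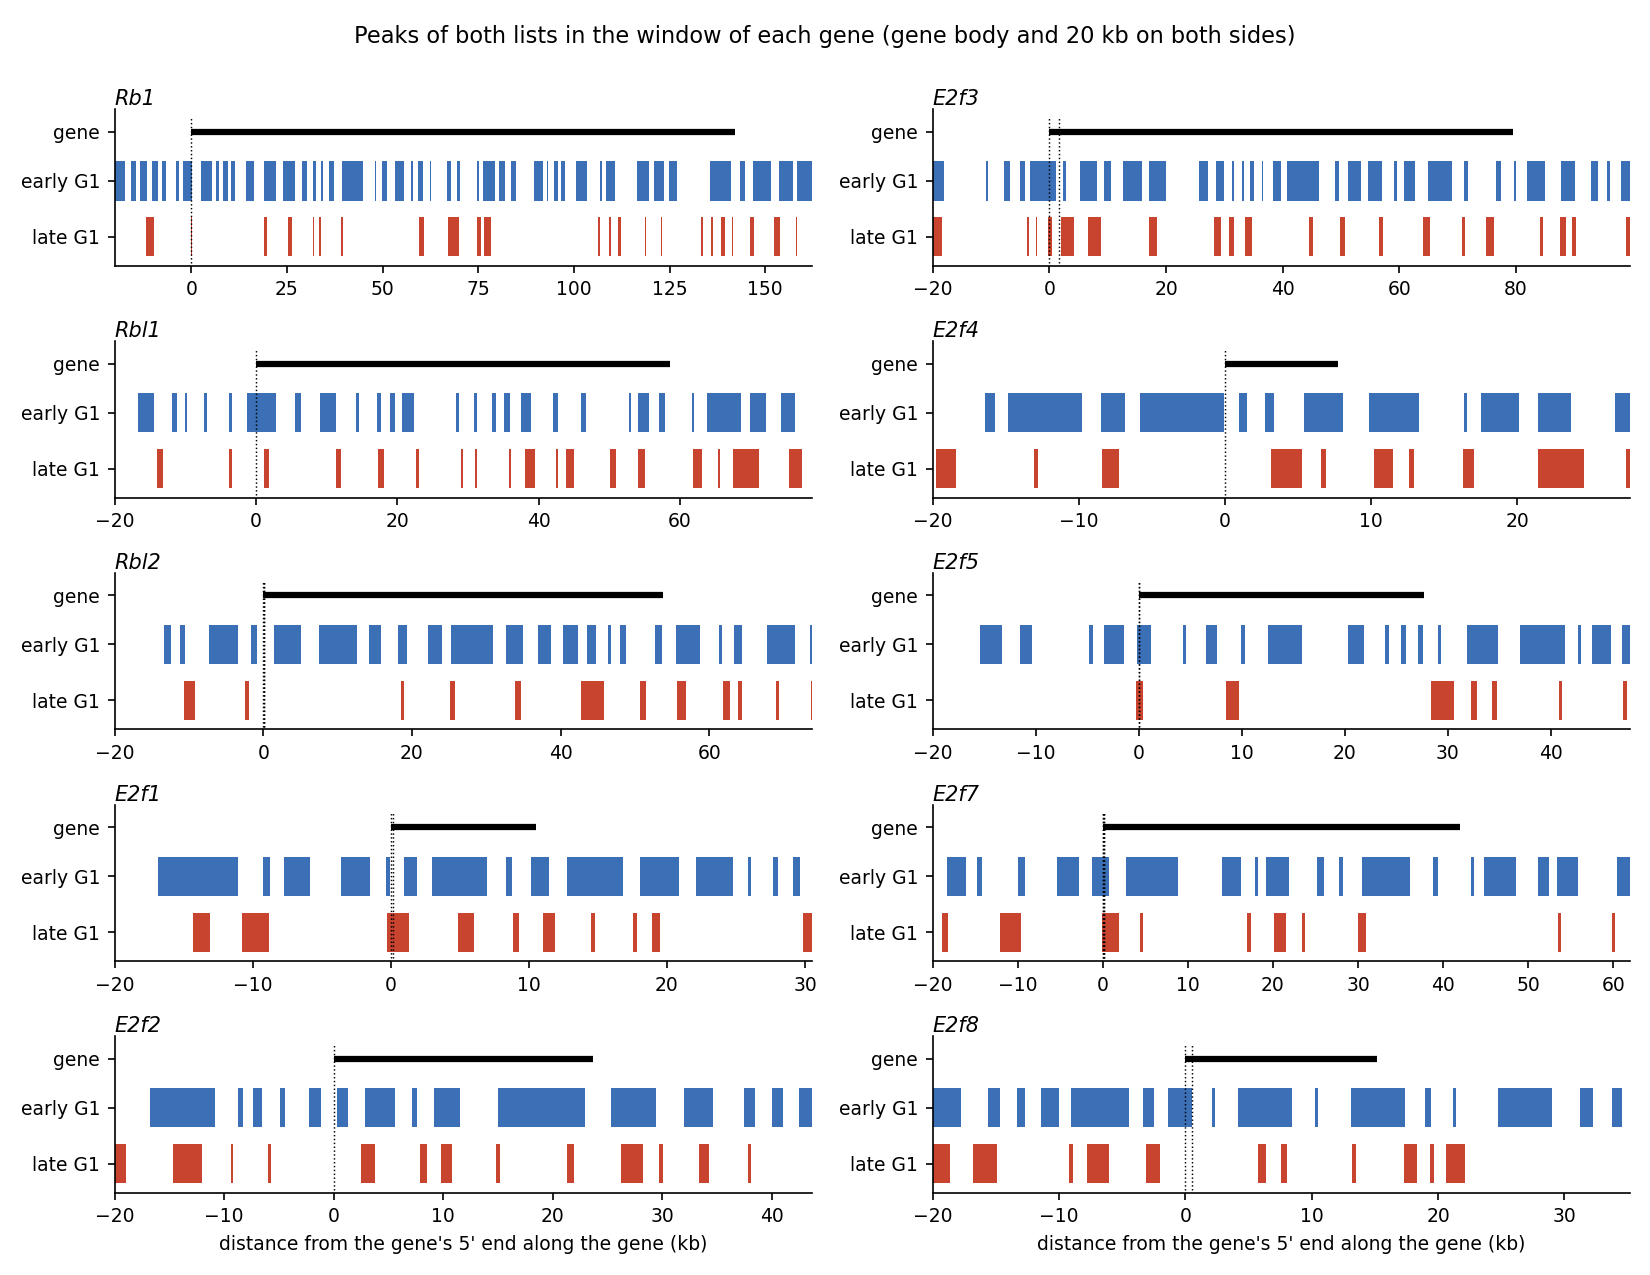
Peaks of the early (blue) and late (red) G1 lists over the whole window of each gene; the x axis is the distance from the 5′ end along the gene in kb, the black bar is the gene and dotted lines are start sites. Early peaks fill between 32.6% and 55.6% of each window and late peaks between 8.55% and 23.2%.

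Over whole windows the family's values lay near the medians of all genes. Together the windows held 222 early and 134 late peaks. The median covered share was 47.1% in the early list, against 45.4% over all protein-coding genes, and 16.8% in the late list, against 14.9%. In each list 6 of the 10 genes were above the median of all genes. The number of peaks per 100 kb had medians of 26.1 and 17.5, against 24.7 and 16.1. Of the early peaks 105 (47.3%) lay in introns and of the late peaks 56 (41.8%), while the family's own start sites took 5.86% and 4.48%.

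E2f1 and E2f4, the shortest genes, had the most covered early windows, at 55.6% each, more than in 92.0% of all genes. Most of both windows is flank. Over the gene body alone the early share was 53.9% in E2f1 and 44.8% in E2f4, and it was highest in E2f2, at 61.5%. E2f4 also had the most covered late window, at 23.2%, again more than in 92.0% of all genes. Its start site nevertheless had no late peak within 1 kb. E2f5 had the least covered late window, at 8.55%, more than in 11.1% of genes, and a late peak over its start. The genes with the most and the least covered late windows thus had the opposite pattern at their starts.

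The ratio of late to early covered share ranged from 0.227 in E2f5 to 0.512 in Rbl1, with a median of 0.34, against 0.336 over all genes. Rbl1 combined the lowest early share of the family, 32.6%, with a late share of 16.7%, close to the family's median. E2f5 (8.55% late, 37.7% early), Rb1 (11.2% and 47.9%), Rbl2 (11.7% and 46.2%) and E2f7 (11.6% and 44.4%) had ratios of 0.227, 0.233, 0.253 and 0.261. For E2f1, E2f2, E2f8, E2f3 and E2f4 they were 0.322, 0.358, 0.374, 0.382 and 0.418. These ratios move with the different lengths of the lists and are read only against each other and against all genes.

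**Figure D4:**
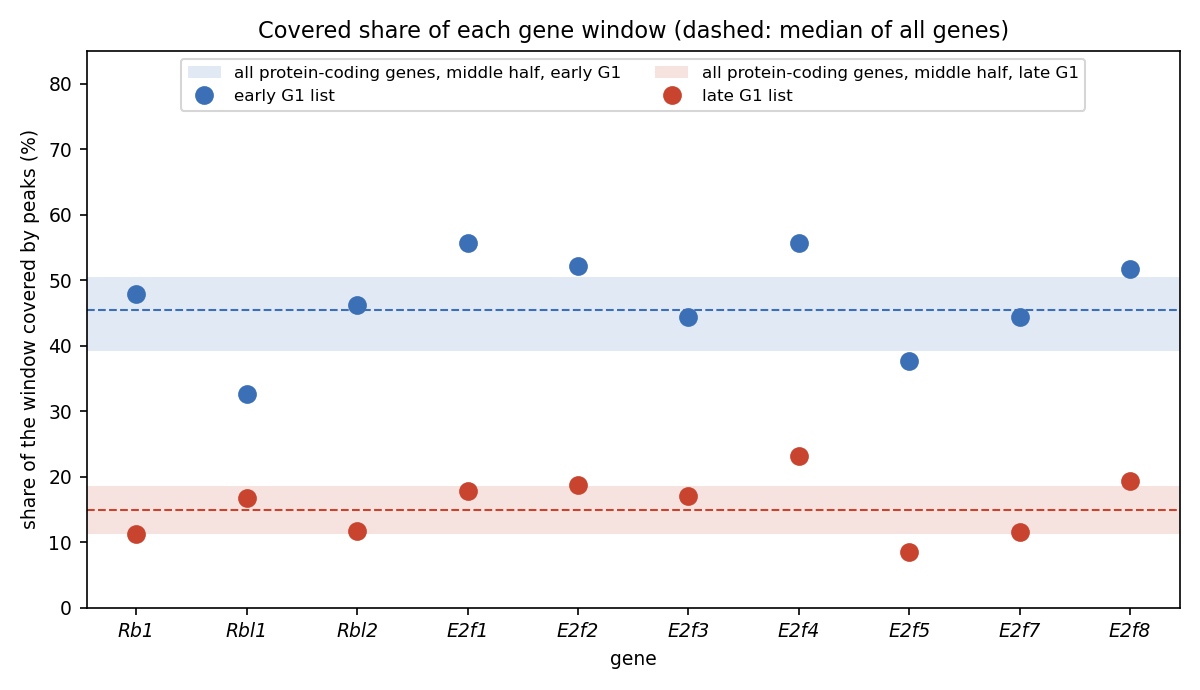
Share of each gene window covered by peaks of the early (blue) and late (red) G1 lists, in percent; bands hold the middle 50% of all protein-coding genes and dashed lines their medians of 45.4% and 14.9%. Rbl1 and E2f5 lie below the early band, E2f1, E2f2, E2f4 and E2f8 above it, and E2f4 is the highest in the late list.

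Most late peaks in these windows met a peak of the other list. Of the 134 late peaks 103 (76.9%) overlapped an early peak, against the same 68.5%. Of the 222 early peaks 97 (43.7%) overlapped a late peak, against 41.2%. In E2f8 all 11 late peaks overlapped an early one. By bases, the share of late-covered sequence that was also early-covered was lowest in E2f7, at 40.7%, and highest in E2f2, at 73.3%. Early peaks covered 44.4% of the whole window of E2f7 and 52.1% of that of E2f2. In E2f7 and E2f1 (51.6%, against 55.6%) the share was below the early cover of the whole window, and in the other genes above it. This share was not computed over all genes.

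Other genes of the pathway were described in the same way. Of 25 genes, 24 had an early and 19 a late start-site peak, 18 had both, 6 an early one only and 1 a late one only. Over all protein-coding genes these shares were 92.6%, 67.4%, 64.3%, 28.3% and 3.07%, in that order. The late count includes Ccne2, where late peaks covered only 0.0421% of the start-site windows. E2f6, a repressor E2F that acts without pocket proteins, and the DP genes Tfdp1 and Tfdp2, whose products pair with E2Fs, all had both. Of the 6 MuvB and B-Myb genes Lin9 and Lin54, which encode subunits of the MuvB core, had an early peak only. Of 16 E2F target genes, Ccne1 (cyclin E1) and Rrm1 (the large subunit of ribonucleotide reductase) were among 4 with an early peak only. Cdc6, which loads the replicative helicase, was the 1 gene with a late peak only: late peaks covered 71.0% of its start-site windows and early peaks 0.0%. Median covered shares of the 25 windows were 47.8% in the early and 16.6% in the late list, near those of the family.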

How the data were processed

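The 7 ATAC-seq libraries, 3 of early and 4 of late G1, were grouped by their titles; the labels do not say whether animals were shared. The submitters' processing notes name mm10 and the tools Trimmomatic, STAR, bedtools and MACS2. Per the file headers, MACS 2.2.7.1 called broad peaks on 1 merged file per group, with no control file, duplicates included, at q-value cutoffs of 0.05 and 0.1. Duplicates can raise a pileup, and broad calling joins neighbouring regions. The deposited pileup is a signal not scaled to depth. The deposited fold compares it with a background over 10000 bp of the same fragments. At many peaks the background was instead a floor value common to the whole list. The deposited −log10 q-value served to rank peaks in alternatives. Its heading is damaged; it was identified by MACS2's column order. Lengths equal end − start + 1, so starts were read as counted from 1, and 0 peaks ran past a chromosome end.

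GENCODE M21 (GRCm38) gave 21829 protein-coding genes with a protein-coding transcript, 1 per symbol, without the mitochondrion. Overlap meant 1 bp. A start-site peak overlaps 1 kb on both sides of a protein-coding transcript start of that gene. Other peaks were put, in order, at a start site of another gene, then by their centre in exon, intron or flank; exon and intron numbers are those of the longest protein-coding transcript. The members, the lists of other genes and the words searched were chosen with earlier results of these data known. All 10 members are described. Of other pathway genes those with a late start-site peak only, those with none, and up to 4 with an early one only are named. Coverage of the start position, the upper quartile of pileup, the CpG ratio limit and the E2f1 stretch were chosen after values were seen. The interval search was checked on 1000 random intervals, with 0 differences from direct enumeration, and the word search found 200 of 200 planted words. Python 3.11.15, NumPy 2.4.6, pandas 2.3.3, pysam 0.24.0, samtools 1.23.1 and matplotlib 3.10.9 were used. The −log10 p-value column was not used. No test between groups was made. Alternatives were stricter sets of peaks, other flanks, other start-site windows, the 5′ end of the gene alone, stricter overlap and merged peaks.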

Additional observations from a re-analysis of the deposited data

How the results depend on the processing

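Start-site counts were the same with the 5′ end of the gene alone and with an overlap of at least 200 bp. They cannot change with the flank, and merging peaks under 500 bp apart changed nothing, because the smallest gap between peaks is 924 bp in the early and 945 bp in the late list. Among peaks at or above each list's median −log10 q-value (the upper part), and among the strongest peaks in equal numbers, 3 genes (Rb1, E2f3 and E2f7) had a late start-site peak and the same 3 genes had both. The late set is identical in these 2 settings by construction, and 31.8% of all genes had a late start-site peak there. Both were present at 22.9% of all genes in the upper part and at 16.8% with equal numbers. An early one was present at 7 of the family's genes in each setting, against 66.6% and 47.1% of all genes. Rbl1, E2f1, E2f4 and E2f5 then had an early one only, against 43.6% and 30.3% of all genes. Rbl2, E2f2 and E2f8 had neither, as did 24.5% of all genes in the upper part and 37.9% with equal numbers. With a start-site window of 500 bp Rbl2 lost its early peak and the other genes kept theirs. With a window of 3 kb, 9 genes had a late start-site peak (87.3% of all genes), 9 had both (86.6%), and 1, E2f4, had an early one only (11.9%). Requiring the centre of the peak in the window left 8 genes with an early start-site peak (68.0% of all genes). Of these 3, Rbl1, E2f2 and E2f8, had an early one only (26.0%), while Rbl2 and E2f4 had none in either list (17.1%). No setting gave a gene with a late one only.

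The number of early peaks in the windows was 112 in the upper part of the list, 83 with equal numbers, 371 with a flank of 50 kb and 124 in gene bodies alone. The number of late peaks was 70, 70, 220 and 70. The median covered share of the early windows was 25.7% in the upper part and 18.4% with equal numbers; that of the late windows was 8.48% in this same set, and 15.4%, 12.7% and 13.4% with flanks of 10 kb, 50 kb and none. Such settings hold fewer peaks or another length of sequence by construction. No paired analysis was possible because each group is 1 merged list, and no library could be left out for the same reason. Depth per library is not given in the sources used here, so the absence of a late peak says only that none was called in the pool.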

Other observations

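Reference promoters that hold an E2F word were covered by late peaks more often than promoters in general, and the gap was smaller among CpG-rich promoters. Of 744 promoters with the word 50.9% were touched by a late peak, against 34.7% of all 32851. Among the 9544 promoters with a CpG ratio of at least 0.7 the share was 54.5%, and among the 518 of these with the word it was 59.3%. In the early list the shares were 74.7% with the word and 65.5% over all promoters, and 79.9% and 80.7% at a CpG ratio of at least 0.7. Promoters of 1 gene can overlap, and no test was made.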
